A study of Mus musculus with 7 samples.

Results

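The BCL2 family decides at the mitochondrion whether a cell lives or undergoes apoptosis, and 10 of its genes were followed here in the B-cell precursor (BCP) cells of Eμ-Ret mice. They were taken by symbol from a table of 24341 genes, and all 10 were found and passed the filter on low values that left 10541 genes to be tested. They comprise 3 anti-apoptotic genes (Bcl2, Bcl2l1 and Mcl1), 2 effectors (Bax and Bak1) and 5 BH3-only genes (Bcl2l11, Bid, Bad, Bbc3 and Pmaip1). RNA-seq was performed on 7 BCP samples from spleen. Of these, 4 came from young healthy Eμ-Ret mice (preleukemic) and 3 from older moribund Eμ-Ret mice with overt disease (leukemic). The paper describes sorting for preleukemic BCP cells. Its leukemic spleen cells for in vitro work were mostly used without enrichment. Its RNA-seq methods do not state whether the leukemic samples were sorted. The mice sampled were hemizygous for the Emu-Ret transgene on a BALB/c background, in which the IgH enhancer drives an oncogenic Ret fusion gene in the B lineage. No sample without the transgene was compared, and the age of the mice and the stage of disease cannot be told apart. The labels number the samples as replicates and do not state that each is a separate mouse, so p-values measure the spread between these samples.

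Anti-apoptotic BCL2 proteins bind and hold back the effectors BAX and BAK, which otherwise form pores in the outer mitochondrial membrane and release cytochrome c. BH3-only proteins are the stress sensors of the family: they occupy the groove of the anti-apoptotic proteins, and some of them also activate the effectors. B-cell precursors depend on this balance, since cells that fail to assemble a receptor, lose IL-7 or carry DNA damage are removed by it.

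The contact between the groups of the family is the BH3 segment, a short helix found in effectors, BH3-only proteins and most anti-apoptotic members. The coding sequence of this segment is shown for the 5 genes on which the results below turn, read 5′ to 3′ on the coding strand from the GENCODE M21 transcripts (GRCm38 reference, not BALB/c reads). Capitals mark the codons for leucine, 3 further residues, a small residue (glycine, alanine or serine) and aspartate, a pattern written from known family sequences.
Bak1, chr17:27022534-27022569, minus strand: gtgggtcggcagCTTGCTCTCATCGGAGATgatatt
Bax, chr7:45466000-45466035, minus strand: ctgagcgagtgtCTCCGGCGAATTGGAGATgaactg
Mcl1, chr3:95659424-95659459, plus strand: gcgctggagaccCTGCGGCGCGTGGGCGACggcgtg
Bbc3, chr7:16313761-16313796, plus strand: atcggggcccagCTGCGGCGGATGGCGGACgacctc
Bmf, chr2:118545103-118545138, minus strand: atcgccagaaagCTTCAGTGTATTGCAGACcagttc
Each of these stretches lies within a single coding exon. The pattern matched once in the protein of each of the 9 members searched, but 33.6% of 21760 proteins in the annotation hold it, so a match alone does not mark a BH3 segment. Pmaip1 was not searched. Bcl2l2, another family gene that was searched, had no match, so the pattern does not find every family gene.

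Expression was given as FPKM (fragments per kilobase of transcript per M (mega) mapped fragments), 1 value per gene and sample, and was compared on the log2(FPKM + 1) scale with limma. On this scale the change of a low gene is understated. Low values implied 13.6 to 16.4 M fragments per sample. The lowest value of any member was 4.20 FPKM. At the lowest of these depths, which was that of another sample, it would stand for about 85.9 fragments. The counting error would then be 10.8%, for a transcript of 1500 bases. Of the markers of BCP cells, Cd79a was high in all 7 samples (869 to 1194 FPKM leukemic, 1259 to 1626 preleukemic). Enpep encodes BP-1, an antigen by which preleukemic cells were sorted. It was at 19.1, 102 and 77.2 FPKM in the leukemic and at 134 to 210 FPKM in the preleukemic samples. Thus Enpep was lowest in leukemic replicate 1. Of 16 B-cell precursor markers, 4 were lower in leukemic samples and 0 higher by the test used for the members. Markers of other cells moved the other way: 17 of 17 tested red cell precursor markers were higher, with a summed level of 5766 to 26581 FPKM in leukemic and 382 to 2806 FPKM in preleukemic samples. Of 12 tested macrophage markers 7 were higher (sums of 58.2 to 286 against 16.9 to 29.5 FPKM), and of 13 tested neutrophil markers 6 were higher (1468 to 1830 against 154 to 897 FPKM). Over all genes tested 8.47% were called higher and 6.26% lower. Some called markers of other cells passed the filter on low values only through the leukemic samples, so these counts are descriptions. Examples are Adgre1 (0.332 to 0.624 FPKM preleukemic) and Ctsg (0.0911 to 2.87 FPKM preleukemic). Of 10 tested T and NK cell markers 0 were called (sums of 28.4 to 94.7 against 30.7 to 38.8 FPKM). Of 6 tested plasma cell markers 1 was higher, Jchain (81.5 to 143 FPKM leukemic, 18.6 to 22.2 FPKM preleukemic). The plasma cell sums (488 to 1004 against 833 to 1068 FPKM) include Mzb1, which was not called (277 to 778 against 686 to 916 FPKM). The part of these other cells in the values below was not tested, nor was a difference in purity between the groups. In bulk RNA fewer cells of a type and less RNA per cell cannot be told apart.

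Of the 10 genes, only Bak1 passed the test between preleukemia and leukemia (limma, adjusted p under 0.05 over all genes). Bak1 was higher in leukemic samples. For the other members, not passing does not show that a gene was unchanged. The narrowest of their unadjusted limma intervals for the log2 fold change was -0.39 to 0.19 (Bcl2l1). The widest was -1.21 to 0.76 (Bbc3). Mcl1 was lower in every leukemic sample than in any preleukemic sample but did not pass. Thus 1 of 10 members was called, beside 14.7% of all genes tested (8.47% higher, 6.26% lower), and 2 of 10 had groups that did not overlap, beside 32.0% of all genes tested. The median log2 fold change (leukemic minus preleukemic) of the 10 members was -0.06 and that of all genes tested -0.02, and 4 of the 10 were above 0.

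**Figure D1:**
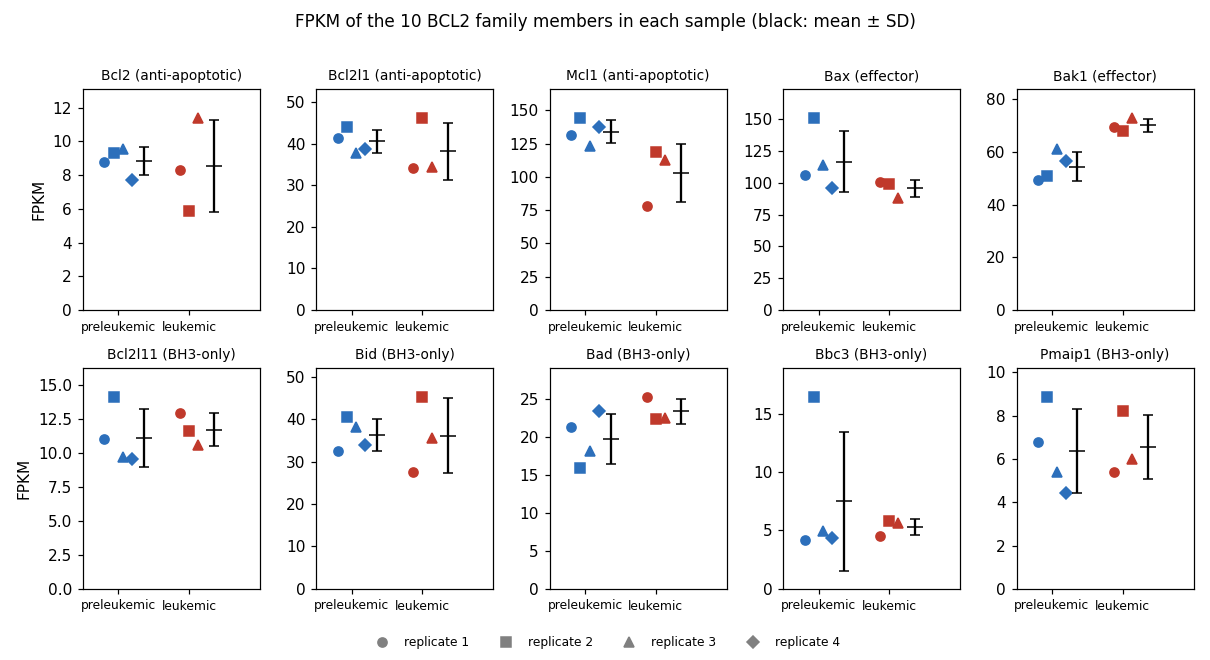
FPKM of each member (vertical axis, from 0, with its own range in each panel) in 4 preleukemic (blue) and 3 leukemic (red) samples, with the marker shape giving the replicate number and black bars the mean ± SD. Bak1 and Mcl1 are the members whose groups do not overlap, and the Bbc3 value of 16.4 FPKM in preleukemic replicate 2 stands far above the other 6.

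Among the anti-apoptotic genes, Mcl1 (chromosome 3, 95658788 to 95663176, plus strand) encodes a short-lived protein that binds BAK and most BH3-only proteins. Leukemic replicates 1 to 3 held Mcl1 at 78.1, 118 and 113 FPKM, and preleukemic replicates 1 to 4 at 131, 144, 123 and 138 FPKM. All leukemic values lay below all preleukemic values, with leukemic replicate 1 the lowest. The means were 103 ± 21.8 (SD, n = 3) and 134 ± 8.92 FPKM (SD, n = 4), a log2 fold change of -0.40 (SE 0.15, 95% interval -0.75 to -0.05). The difference had an unadjusted p of 0.0313 and did not pass adjustment over all genes (limma adjusted p = 0.112). Without leukemic replicate 1 the log2 fold change was -0.21 (limma adjusted p = 0.153). When each sample was rescaled to the same FPKM sum, which moved the median of all genes to -0.18, Mcl1 was at -0.56 and passed (limma adjusted p = 0.0298). Its distance from the median of all genes was -0.38 under both scalings. Of 504 genes tested on chromosome 3, 82.5% had a higher log2 fold change than Mcl1.

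Bcl2 (chromosome 1, 106538178 to 106714274, minus strand), the founding survival gene of the family, was measured at 8.33, 5.90 and 11.4 FPKM in leukemic and at 8.80, 9.32, 9.56 and 7.72 FPKM in preleukemic samples. The leukemic samples held both the lowest and the highest value. The means were 8.54 ± 2.74 and 8.85 ± 0.818 FPKM (SD, n = 3 and 4), and the log2 fold change was -0.08 (SE 0.19, 95% interval -0.53 to 0.37, limma adjusted p = 0.785). Without leukemic replicate 2 it was 0.13. The exons of Bcl2 overlap those of the antisense gene D630008O14Rik on the opposite strand.

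Bcl2l1 (chromosome 2, 152780668 to 152831728, minus strand) encodes BCL-XL, the survival protein of late red cell precursors and platelets as well as of lymphoid cells. It had 34.1, 46.1 and 34.3 FPKM in the leukemic and 41.4, 44.1, 37.8 and 38.8 FPKM in the preleukemic samples. Leukemic replicate 2 was the highest of all 7, while the other leukemic samples were the lowest. Means of 38.2 ± 6.91 and 40.5 ± 2.84 FPKM (SD, n = 3 and 4) gave a log2 fold change of -0.10 (SE 0.12, 95% interval -0.39 to 0.19, limma adjusted p = 0.606).

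Bak1 (chromosome 17, 27019810 to 27029009, minus strand) encodes BAK, the effector that resides on the outer mitochondrial membrane. Its level was 69.5, 67.8 and 72.7 FPKM in leukemic and 49.2, 51.0, 61.1 and 56.3 FPKM in preleukemic samples. Every leukemic value was above every preleukemic value, with preleukemic replicate 3 the nearest. The means were 70.02 ± 2.52 (SD, n = 3) and 54.4 ± 5.39 FPKM (SD, n = 4), and the log2 fold change was 0.36 (SE 0.09, 95% interval 0.15 to 0.58, limma adjusted p = 0.0425). This call did not outlast the loss of any 1 sample: without each of the 7 in turn the log2 fold change was 0.32 to 0.42 and the limma adjusted p 0.0568 to 0.102. It was also lost with quantile normalization (limma adjusted p = 0.0612) and with rescaling to the same sum (0.20, limma adjusted p = 0.138), although Bak1 stood 0.38 above the median of all genes under the latter as it did in the deposited values.

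The Bak1 difference lay close to the median of its chromosome. The median log2 fold change of 592 genes tested on chromosome 17 was 0.35 (quartiles 0.14 and 0.57), and 199 of them (33.6%) were called higher and 3 lower. Bak1 exceeded this median by 0.02, and 285 of the 592 genes (48.1%) lay above it. On the chromosomes of the other 9 members the median was between -0.08 and -0.04. The paper reports gains of the chromosome carrying Bak1 in every leukemia it examined for chromosome number, and in some preleukemic samples. It does not state whether the samples used for RNA-seq were among those examined. Chromosome number is thus not known for the samples compared here, and its part in the Bak1 difference was not tested. The exons of Bak1 overlap those of Ggnbp1 on the opposite strand, and since the strand setting of the counting is not given, reads from the overlap cannot be assigned. Ggnbp1 itself was at 4.13 and 3.60 FPKM (leukemic and preleukemic means), far below Bak1.

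**Figure D2:**
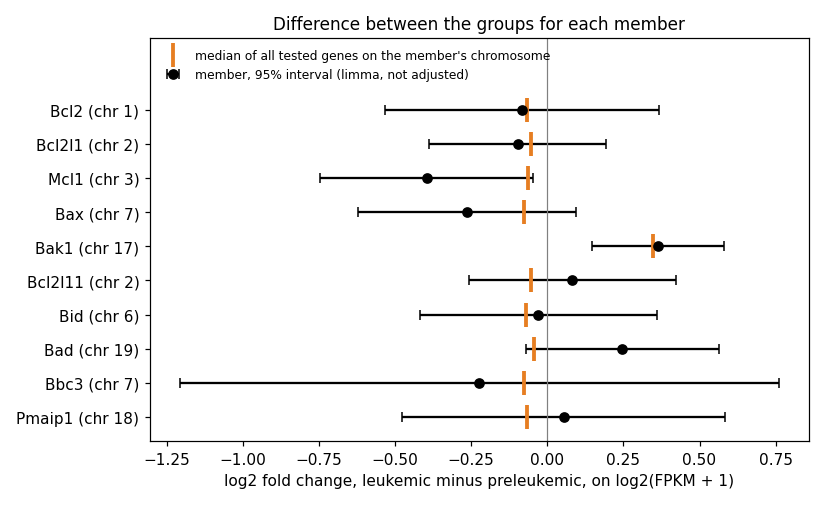
Log2 fold change (horizontal axis, leukemic minus preleukemic on log2(FPKM + 1)) of each member as a black point with its unadjusted 95% interval from limma, and the median of all genes tested on its chromosome as an orange bar. Bak1 lies on the raised median of chromosome 17 (0.36 against 0.35), whereas Mcl1 lies 0.33 below the median of chromosome 3.

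Bax (chromosome 7, 45461697 to 45466898, minus strand) encodes the effector that moves from the cytosol to mitochondria, and its transcription can be raised by p53. Its levels were 101, 98.9 and 88.1 FPKM in the leukemic and 106, 151, 114 and 95.9 FPKM in the preleukemic samples. Preleukemic replicate 2 was the highest, and preleukemic replicate 4 lay among the leukemic values. Means of 95.8 ± 6.79 and 117 ± 24.0 FPKM (SD, n = 3 and 4) gave a log2 fold change of -0.26 (SE 0.15, 95% interval -0.62 to 0.10, limma adjusted p = 0.26). Without preleukemic replicate 2 it was -0.13 (limma adjusted p = 0.408). The ratio of Bax to Bak1 was 1.45, 1.46 and 1.21 in the leukemic and 2.15, 2.96, 1.87 and 1.70 in the preleukemic samples, with the highest value in preleukemic replicate 2 and no overlap. The exons of Bax overlap those of Gm45808, a protein-coding gene on the same strand, so reads from that stretch cannot be assigned by strand.

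Of the BH3-only genes, Bcl2l11 (chromosome 2, 128126038 to 128162547, plus strand) encodes BIM, which binds every anti-apoptotic member and is a main killer of lymphoid cells deprived of cytokine. It had 12.9, 11.6 and 10.6 FPKM in the leukemic and 11.0, 14.1, 9.71 and 9.52 FPKM in the preleukemic samples, with the leukemic values inside the preleukemic range. The log2 fold change was 0.08 (SE 0.15, 95% interval -0.26 to 0.42, limma adjusted p = 0.715).

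Bid (chromosome 6, 120891930 to 120916853, minus strand) links death receptors to mitochondria once caspase-8 has cleaved its protein. It had 27.6, 45.2 and 35.5 FPKM in the leukemic and 32.5, 40.6, 38.2 and 33.9 FPKM in the preleukemic samples. Leukemic replicates 1 and 2 held the lowest and the highest value, and the log2 fold change was -0.03 (SE 0.17, 95% interval -0.42 to 0.36, limma adjusted p = 0.913). Its exons overlap those of Bcl2l13, another family gene, on the opposite strand.

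Bad (chromosome 19, 6941861 to 6951899, plus strand), whose protein is held inactive by survival kinases such as AKT, had 25.3, 22.4 and 22.5 FPKM in the leukemic and 21.3, 15.96, 18.2 and 23.5 FPKM in the preleukemic samples. Preleukemic replicate 4 was above 2 of the 3 leukemic samples. Means of 23.4 ± 1.62 and 19.7 ± 3.32 FPKM (SD, n = 3 and 4) gave a log2 fold change of 0.25 (SE 0.14, 95% interval -0.07 to 0.56, limma adjusted p = 0.238). Gpr137, whose exons overlap those of Bad on the opposite strand, fell by 0.43 on the log2 scale (7.80 against 10.9 FPKM, limma adjusted p = 0.0295).

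Bbc3 (chromosome 7, 16308393 to 16318205, plus strand) encodes PUMA and Pmaip1 (66458533 to 66465565 on its chromosome, plus strand) encodes NOXA, both classical p53 targets. Bbc3 had 4.51, 5.81 and 5.60 FPKM in the leukemic and 4.20, 16.4, 4.93 and 4.38 FPKM in the preleukemic samples. Apart from preleukemic replicate 2, the 6 values lay between 4.20 and 5.81 FPKM. The log2 fold change was -0.22 (SE 0.42, 95% interval -1.21 to 0.76, limma adjusted p = 0.732), and without preleukemic replicate 2 it was 0.19 (limma adjusted p = 0.384).

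Pmaip1 had 5.40, 8.22 and 6.00 FPKM in the leukemic and 6.77, 8.86, 5.39 and 4.42 FPKM in the preleukemic samples. The leukemic values lay inside the preleukemic range, and the log2 fold change was 0.05 (SE 0.23, 95% interval -0.48 to 0.58, limma adjusted p = 0.886). Its sign changed with rescaling to the same sum (-0.10).

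The order of the levels was nearly the same in both groups. FPKM is scaled for transcript length, so levels of different genes can be set side by side. By the group means Mcl1 was the highest, followed by Bax, Bak1, Bcl2l1, Bid, Bad, Bcl2l11 and Bcl2 in leukemic as in preleukemic samples, and Bbc3 and Pmaip1 came last and exchanged places. Neighbours whose sample ranges overlapped within both groups were Mcl1 and Bax, Bcl2l1 and Bid, Bcl2l11 and Bcl2, and Bbc3 and Pmaip1. Bcl2 also overlapped the gene after it. The steps from Bax to Bak1, Bak1 to Bcl2l1, Bid to Bad and Bad to Bcl2l11 were free of overlap in both groups.

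Mcl1 thus made up most of the summed message of the 3 anti-apoptotic members. Other survival genes of the family, such as Bcl2l2 and Bcl2a1b, are not in this sum. Its share of the summed FPKM of Mcl1, Bcl2l1 and Bcl2 was 64.8%, 69.5% and 71.2% in leukemic replicates 1 to 3 and 72.3%, 72.9%, 72.2% and 74.7% in preleukemic replicates 1 to 4. The share of Bcl2 was 3.46% to 7.18% in leukemic and 4.19% to 5.61% in preleukemic samples. These sums and ratios were formed after the single genes had been seen and are descriptions.

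The anti-apoptotic sum was 120, 170.502 and 158 FPKM in the leukemic and 170.495 to 197 FPKM in the preleukemic samples. Only leukemic replicate 2 reached the preleukemic range, at its lower edge. The effector sums overlapped (161 to 170 FPKM leukemic, 152 to 202 FPKM preleukemic). The anti-apoptotic sum divided by the effector sum was 0.708, 1.02 and 0.985 in the leukemic and 1.17, 0.978, 0.972 and 1.21 in the preleukemic samples, with leukemic replicate 1 the lowest. The ratio of Mcl1 to Bak1, an inhibitor and the effector it holds, was 1.12, 1.75 and 1.55 in the leukemic and 2.67, 2.82, 2.02 and 2.44 in the preleukemic samples. It did not overlap between the groups, as its parts did not. The summed FPKM of the 5 BH3-only genes overlapped as well (75.8 to 93.2 leukemic, 75.7 to 95.9 preleukemic). These genes together made up 20.1% to 21.7% of the FPKM of the 10 members in leukemic and 18.1% to 19.4% in preleukemic samples, a share that also moves with the other 5 members in its denominator.

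Preleukemic replicate 2 stood apart for several members. Its Bbc3 level of 16.4 FPKM was 3.64 times the mean of the other 3 preleukemic samples (4.50 FPKM). In the same sample Pmaip1 was 1.60 times and Bax 1.43 times the mean of the other 3, and 7 of the 10 members had their highest preleukemic value there, beside 27.05% of all genes tested. Bak1 and Bad were below that mean in this sample. A list of 26 p53 target genes was written after the Bbc3 values had been seen, and of its 20 tested genes that are not members 14 were highest of the 4 preleukemic samples in replicate 2. Zmat3, an RNA-binding p53 target, was at 9.22 FPKM there (4.27 times the mean of the other 3), the cell cycle inhibitor Cdkn1a at 28.1 FPKM (2.87 times), Phlda3 at 24.9 FPKM (2.72 times) and Aen at 25.3 FPKM (1.77 times). Trp53 itself was at 125 FPKM in this sample and at 116 to 129 FPKM in the other preleukemic samples. These are values of 1 sample, without a test, and nothing in the labels sets the sample apart.

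**Figure D3:**
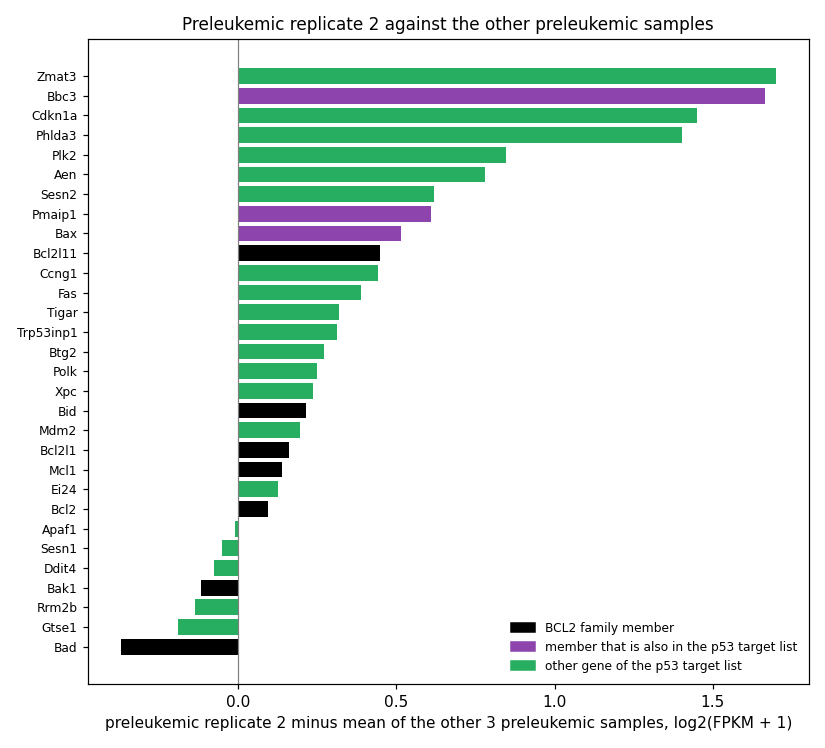
Bars give log2(FPKM + 1) in preleukemic replicate 2 minus the mean of the other 3 preleukemic samples (horizontal axis) for the 10 members (black, or purple where the gene is also in the p53 target list) and the other tested genes of that list (green). Zmat3, Bbc3, Cdkn1a and Phlda3 lead, and Bad and Bak1 are members below 0.

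Other genes of the same family were drawn from a list of 15, of which 9 could be tested, and 2 were higher and 2 lower, beside 14.7% of all genes tested that were called. Bmf (chromosome 2, 118528757 to 118549687, minus strand), a BH3-only gene whose product is tethered to the cytoskeleton, had 20.8, 18.9 and 28.3 FPKM in the leukemic and 33.4, 33.5, 41.7 and 56.4 FPKM in the preleukemic samples, without overlap. It fell by 0.82 on the log2 scale (SE 0.21, limma adjusted p = 0.0442). Its BH3 stretch is the last of those shown above. Bcl2l2, which encodes the survival protein BCL-W, fell by 0.48 (SE 0.12, limma adjusted p = 0.0443), from 9.08 to 12.4 FPKM in preleukemic to 6.53 to 8.10 FPKM in leukemic samples.

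Higher in leukemic samples were Bnip3l and Bcl2a1b. Bnip3l, which serves the removal of mitochondria in maturing red cells, had 44.0, 66.5 and 58.6 FPKM in the leukemic and 38.3, 34.7, 40.7 and 40.1 FPKM in the preleukemic samples. It rose by 0.52 on the log2 scale (SE 0.14, limma adjusted p = 0.0499), and its highest value was in leukemic replicate 2, the sample with the highest sums of red cell precursor (26581 FPKM), macrophage (286 FPKM) and T and NK cell markers (94.7 FPKM). The red cell precursor sums of leukemic replicates 1 and 3 were 5766 and 12937 FPKM. That of preleukemic replicate 1, 2806 FPKM, was above the 382 to 399 FPKM of the other preleukemic samples. Bnip3l in preleukemic replicate 1 lay inside the range of those samples. The part of red cell precursors in the Bnip3l values was not tested. Bcl2a1b, a survival gene with near-identical copies among which reads can be split, was low throughout (1.59 to 5.32 FPKM leukemic, 0.01 to 0.730 FPKM preleukemic, with replicate 4 at the floor of the table) and had a log2 fold change of 1.63 (SE 0.36, limma adjusted p = 0.0278). It passed the filter on low values only through the leukemic samples, so its call is no more than a description, and with a pseudocount of 0.1 the log2 fold change was 3.06. Bok, a relative of the effectors, had 97.1, 21.8 and 36.7 FPKM in the leukemic and 26.9, 17.5, 27.9 and 15.3 FPKM in the preleukemic samples, with leukemic replicate 1 far above the other 6, and its log2 fold change of 0.98 did not pass (SE 0.47, limma adjusted p = 0.188). Bcl2l12 had a log2 fold change of -0.31 (SE 0.09, limma adjusted p = 0.0683). Hrk and Bcl2l10 were listed at the floor of the table in all 7 samples.

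Each of these 4 calls was lost in most leave-outs and under some settings, while the log2 fold changes kept their sign. Over the leave-outs they were -0.99 to -0.67 for Bmf and -0.55 to -0.41 for Bcl2l2. For Bnip3l they were 0.39 to 0.69 and for Bcl2a1b 1.34 to 1.98. Calls over all genes fell from 1553 to 932, 443, 271 and 149 without preleukemic replicates 1 to 4. They were 1366, 1620 and 1402 without leukemic replicates 1 to 3. Of the 7 leave-outs, Bmf and Bcl2l2 passed only without leukemic replicate 3, Bnip3l only without leukemic replicate 1, and Bcl2a1b only without leukemic replicate 2. Over the other leave-outs the limma adjusted p reached 0.111 for Bmf, 0.116 for Bcl2l2, 0.117 for Bnip3l and 0.0824 for Bcl2a1b. Without a filter on low values, Bmf, Bcl2l2 and Bnip3l were not called (limma adjusted p = 0.0635, 0.0665 and 0.0647), and the 3 genes called were Bcl2a1b and its copies Bcl2a1a and Bcl2a1d, all higher. Bnip3l was also lost with a pseudocount of 0.1 (limma adjusted p = 0.0501), with a filter on a sum of at least 70 (limma adjusted p = 0.0511) and with rescaling to the same sum (limma adjusted p = 0.0719).

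Genes downstream and upstream of the family were read beside the same 14.7% of all genes tested. Of 17 apoptosome and caspase genes, all tested, 0 were higher and 1 lower: Casp8, the caspase that cleaves BID, had 39.1, 44.5 and 48.8 FPKM in the leukemic and 61.3, 61.9, 63.2 and 65.7 FPKM in the preleukemic samples. Casp8 fell by 0.51 on the log2 scale (SE 0.09, limma adjusted p = 0.0171), and the call was lost without preleukemic replicate 3 (limma adjusted p = 0.0563) or 4 (0.065). Of 16 genes of inhibitor of apoptosis proteins and death receptors 12 were tested and 1 was higher. This was Tnfrsf1a, the receptor TNFR1, with 1.97 to 3.53 FPKM in leukemic and 0.333 to 1.01 FPKM in preleukemic samples (log2 fold change 1.25, SE 0.25, limma adjusted p = 0.0218). It too reached the filter on low values mainly through the leukemic samples, and with a pseudocount of 0.1 its log2 fold change was 2.07. It no longer passed without preleukemic replicate 2, 3 or 4 (limma adjusted p = 0.0535, 0.0603 and 0.071).

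Of 21 regulators of BCL2 family genes and proteins, all tested, 1 was higher and 1 lower. Foxo1, a transcription factor that drives Bcl2l11 and is restrained by AKT, had 57.2, 104 and 98.6 FPKM in the leukemic and 144, 156, 179 and 176 FPKM in the preleukemic samples. It fell by 0.95 on the log2 scale (SE 0.21, limma adjusted p = 0.0277), whereas Bcl2l11 had a log2 fold change of 0.08. The call for Foxo1 was lost without preleukemic replicate 2, 3 or 4 (limma adjusted p = 0.0696 to 0.0889). E2f1, a cell cycle factor that can raise Bbc3 and Pmaip1, had 19.9, 14.7 and 14.6 FPKM in the leukemic and 12.3, 7.49, 10.2 and 8.65 FPKM in the preleukemic samples, a rise of 0.71 (SE 0.18, limma adjusted p = 0.0411). Of the 7 leave-outs it passed only without preleukemic replicate 1, and the limma adjusted p reached 0.119 without preleukemic replicate 4. It was also lost without a filter on low values (limma adjusted p = 0.0614) and with rescaling to the same sum (limma adjusted p = 0.0572). That rescaling called 27.7% of all genes tested, 6.51% higher and 21.2% lower, and with it 0 of the 21 regulators were higher and 7 lower, and 1 of the 12 death receptor and inhibitor genes was higher and 6 lower.

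**Figure D4:**
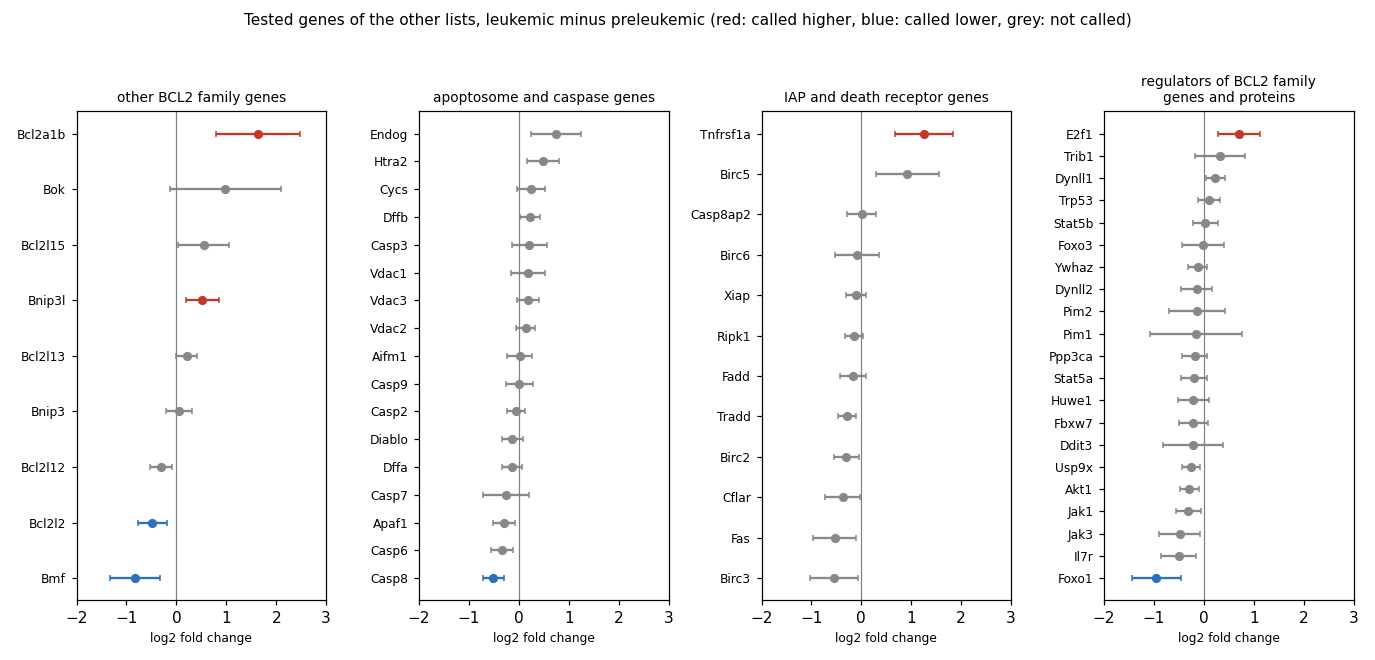
Log2 fold change (horizontal axis, leukemic minus preleukemic on log2(FPKM + 1)) with unadjusted 95% intervals from limma for the tested genes of 4 lists: other BCL2 family genes, apoptosome and caspase genes, inhibitor of apoptosis (IAP) and death receptor genes, and regulators. Red points passed the test as higher (Bcl2a1b, Bnip3l, Tnfrsf1a, E2f1), blue points as lower (Bmf, Bcl2l2, Casp8, Foxo1), and grey points did not pass.

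The genes whose pattern over the 7 samples was most like that of an anti-apoptotic member were sought among 8776 genes with a mean of at least 5 FPKM, by Pearson's r on log2(FPKM + 1). The 7 points share their libraries and 2 groups, so these values are descriptions. For Mcl1 they were Ifi203 (r = 0.99), 2310001H17Rik (0.99) and Gbp9 (0.98), and 447 genes had r above 0.9. For Bcl2l1 they were Fam84b (0.98), Rab5c (0.96) and Ccnd2 (0.95), with 16 genes above 0.9. For Bcl2 they were Elf4 (0.95), Lasp1 (0.95) and Cnot3 (0.94), with 21 genes above 0.9.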

How the data were processed

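Preleukemic BCP cells were sorted by flow cytometry, and the paper does not state whether the leukemic RNA-seq samples were. Libraries were made with a stranded mRNA kit. The authors deposited 1 FPKM value per gene and sample, with a floor of 0.01. The submitters' processing notes name STAR 2.5.0b, bedtools 2.17.0, Cufflinks 2.2.1, Bowtie, DESeq2 and the mm10 build. The study describes DESeq2 on counts, which was not used here since FPKM is not a count. The strand setting of the counting is not given in the sources used here.

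Of 24341 genes, the 10541 whose FPKM values added up to 10 or more across samples were kept. The log2(FPKM + 1) values were fitted with limma (version 3.58.1, R version 4.3.3) with an intensity trend and no covariates. Benjamini-Hochberg adjustment covered every gene kept, and the threshold was 0.05. Without the filter 16676 genes above the floor could be tested. Between any pair of samples at most 1 value above the floor was identical. In data simulated from these 10541 genes with 200 changed, a log2 change of 1 was recovered for 140 genes with 10 false calls. A log2 change of 0.5 was recovered for 32 genes with 0 false calls. In the data 1553 genes were called, and with fewer changed genes the adjusted threshold is stricter. These recovery rates therefore do not carry over to the members, and a member that was not called may still have changed.

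Depth was estimated from 2243 genes with 1 transcript, whose low FPKM values step in whole fragments. Between 74.6% and 80.1% of these values fell within 0.1 of a whole number, against 20% for an even spread. The range searched was narrowed after 1 sample had first been placed on a multiple of its depth. Positions, coding sequences and overlaps were taken from GENCODE M21 (GRCm38), since the position in the table can span more than the gene. Sequences were read by Python 3.11.15 with pandas 2.3.3 and numpy 2.4.6, and figures drawn with matplotlib 3.10.9.

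The members and lists were chosen with earlier results of these data known. Named genes are all members, the called genes of each list (at most 4), the 4 most abundant other family genes, and the 3 genes most like each anti-apoptotic member. Of the marker lists, the abundant Cd79a and Mzb1 and, outside the rule, Enpep, Adgre1, Ctsg and Jchain are named. The p53 target list, the ratios, the comparison of preleukemic replicate 2, the leave-outs of named genes and the genes named beside a member were chosen after seeing values. Red cell precursor markers absent by name from the table were not analysed here. Alternatives were another pseudocount, other filters, quantile normalization, rescaling to the same sum (TPM), leaving out each sample, and the replicate number as a block.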

Additional observations from a re-analysis of the deposited data

Results flagged for a closer look

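Bbc3 was at 16.4 FPKM in preleukemic replicate 2 and at 4.20 to 4.93 FPKM in the other 3 preleukemic samples. The gap to the nearest sample was 0.94 of the range of the group, above Dixon's 95% critical value for 4 samples. It was the 1 gene flagged among 18 members and named family or pathway genes examined in this way, and chance flags about 1 in 20 such groups.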

How the results depend on the processing

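Under the 13 alternatives (7 leave-outs and 6 others), of 127 comparisons of a member with its reported value 106 kept sign and side of the threshold, which for a gene that was not called says little about its size, 10 lost the call (all Bak1), 1 gained it (Mcl1) and 10 changed sign. The number of members called was 0 with quantile normalization, with the replicate block and over the leave-outs (0 to 0). With rescaling to the same sum (TPM) it was 1, but the gene was Mcl1 and not Bak1. Over all genes 1553 were called, 951 with a filter on a sum of at least 70 (7069 tested, without Bcl2, Bbc3 and Pmaip1), 2917 with TPM, 0 with the replicate block, and 149 to 1620 over the leave-outs. Higher and lower calls numbered 893 and 660 as deposited, 754 and 907 with quantile normalization, and 686 and 2231 with TPM. Other family genes called numbered 3 without a filter (3 higher and 0 lower, in place of 2 and 2), 1 with the stricter filter, 0 with the block and 0 to 3 over the leave-outs. Apoptosome and caspase genes numbered 3 with TPM, 0 with the block and 0 to 1 over the leave-outs. Inhibitor and death receptor genes numbered 3 without a filter, 2 with quantile normalization, 7 with TPM, 0 with the block and 0 to 3 over the leave-outs. Regulators numbered 7 with TPM, 0 with the block and 0 to 3 over the leave-outs. Signs changed for Bcl2l11 (-0.072) and Pmaip1 (-0.10) with TPM and for Pmaip1 with the block (-0.081). Over the leave-outs log2 fold changes ran from -0.29 to 0.13 for Bcl2, -0.20 to 0.14 for Bid, -0.39 to 0.19 for Bbc3 and -0.10 to 0.21 for Pmaip1, and without a change of sign from -0.51 to -0.21 for Mcl1, -0.35 to -0.13 for Bax, -0.24 to -0.02 for Bcl2l1, 0.01 to 0.19 for Bcl2l11 and 0.15 to 0.33 for Bad. Causes of these changes were not tested. Same-numbered samples share only a number (correlations of their deviations 0.03, 0.05 and -0.09), and preleukemic replicate 4 has no partner, so that the block rests on 6 samples. The standard error of Bbc3 was 0.42 with all samples and 0.14 without preleukemic replicate 2.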

Other observations

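Of the 26 p53 target genes listed after the Bbc3 values had been seen, 23 were tested between the groups, and 1 was higher and 3 lower in leukemic samples, 4 in all, beside 14.7% of all genes tested. Ddit4, an inhibitor of mTORC1 that also responds to hypoxia, had 163, 45.5 and 129 FPKM in the leukemic and 35.6, 30.8, 30.3 and 32.0 FPKM in the preleukemic samples (log2 fold change 1.59, limma adjusted p = 0.038). Rrm2b, a ribonucleotide reductase subunit, had 4.93, 13.6 and 11.2 FPKM in the leukemic and 19.4, 22.6, 26.6 and 30.1 FPKM in the preleukemic samples (log2 fold change -1.31, limma adjusted p = 0.0336). Trp53inp1 had a log2 fold change of -0.67 (limma adjusted p = 0.0468) and Mdm2, which encodes the ligase that removes p53, of -0.39 (limma adjusted p = 0.0376). Cdkn1a, at 3.27 to 5.12 FPKM in leukemic and 7.41 to 28.1 FPKM in preleukemic samples, did not pass (log2 fold change -1.43, limma adjusted p = 0.051). Ddit4, Rrm2b, Trp53inp1, Mdm2 and Cdkn1a were named for their values, and these genes were not run under the alternatives.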
